A study of Homo sapiens with 6 samples.

Results

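The genes described here encode the machinery that moves proteins into mitochondria, together with the SLC25A genes of the inner-membrane carrier family and RNAs named after them. A gene was taken as a member if its symbol in the array's platform annotation began with TOMM, TIMM or SLC25A, or was one of 12 further symbols of outer-membrane, processing and oxidative-import components. That gave 39 of the 14812 named genes, of which 10 were TOMM genes, 14 TIMM genes, 7 SLC25A genes and 8 from the further symbols. MTX2, PAM16, GRPEL1 and GRPEL2 were not analysed here. Expression was measured in HuH7, a human hepatoma cell line, with 3 arrays of cells given a gapmer against the long noncoding RNA EGOT and 3 arrays of cells given a control gapmer. A gapmer is an antisense oligonucleotide whose DNA centre directs RNase H to cut the RNA it pairs with. All cells, in both groups, were given poly I:C (synthetic double-stranded RNA meant to induce EGOT) and a plasmid for PKR, a kinase that double-stranded RNA activates, and RNA was taken after 36 hours. Cells lacking PKR and poly I:C were not part of the design, and 1 gapmer stood for each group. Whether replicates were separate cultures is not in the labels, so the p-values cover the spread of these arrays only, which may be technical. The sequences given in the labels for the 2 gapmers, which are the only designed difference between the groups, are shown in lower case.
EGOT gapmer: agagacacttagaaga
control gapmer: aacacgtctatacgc

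Most mitochondrial proteins are made in the cytosol as precursors. The TOM complex of the outer membrane receives them, the TIM23 complex passes those with a presequence into the matrix, and the mitochondrial processing peptidase then cuts the presequence off. Carriers of the SLC25 family take another route, in which small TIM chaperones hand them across the intermembrane space to the TIM22 complex, while beta-barrel proteins are placed in the outer membrane by the sorting and assembly machinery.

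EGOT itself fell. Its log2 expression was 4.91, 4.90 and 4.69 on the EGOT gapmer arrays, against 6.29, 6.79 and 6.71 on the control gapmer arrays, a log2 difference of -1.76 (SE 0.14, limma adjusted p = 0.0076). The 2 groups did not overlap, and a two-sided exact permutation test of the 6 values gave p = 0.1, the smallest that 3 arrays against 3 allow. EIF2AK2, the gene of PKR, was lower too, at a mean of 10.68 with the EGOT gapmer and 11.25 with the control gapmer. Its log2 difference was -0.57 (SE 0.072, limma adjusted p = 0.0119), so PKR RNA was not equal in the groups. RNA from the plasmid and from the cells' own gene was not told apart, and its part in the results was not tested. Array medians over all probe sets were 5.08 to 5.23 with the EGOT gapmer, where replicate 2 was the highest, and 5.12 to 5.15 with the control gapmer. Of 10 hepatocyte and hepatoma markers 8 were measured, all above the array median on every array. The mean over them was 12.22 to 12.26 in each group, although single markers went both ways. APOA1, an apolipoprotein, rose (log2 difference 0.36, limma adjusted p = 0.0406), while GPC3 and TTR, at -0.24 and -0.13, did not pass (limma adjusted p = 0.0855 and 0.274) but lay lower with no overlap of the groups. Of 8 leukocyte markers 4 were measured, and 2 of them, CD68 and LYZ, rose (log2 differences 1.06 and 0.57, limma adjusted p = 0.00807 and 0.0171). The other 2, CD2 and CD14, did not pass (log2 differences 0.34 and -0.06, limma adjusted p = 0.229 and 0.736), with overlapping groups. The mean over these 4, moved mostly by CD68 and LYZ, was 7.34 to 7.49 with the EGOT gapmer and 6.90 to 6.99 with the control gapmer. The part of these markers in the results was not tested. The defining leukocyte markers PTPRC and CD3E were not analysed here. The endothelial and fibroblast markers measured, 2 of 5 and 2 of 6, lay below the array median on all 6 arrays. All samples are labelled as the HuH7 line, in which bulk arrays cannot tell more cells with an RNA from more of it per cell.

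Several genes of the import machinery rose with the EGOT gapmer, by modest amounts. Across all 39 members 7 rose and 0 fell (limma, adjusted p under 0.05 over all 14812 genes). That is 17.9% of the members, beside 5.2% of all genes called higher and 3.21% called lower. The members that rose were PMPCA, TOMM22, TOMM34, MTX1, TOMM20L, TIMM44 and TIMM8B. Of the members 33 had a difference above 0, as did 57.8% of all genes. Their median log2 difference was 0.23, a 1.17-fold ratio of EGOT gapmer to control gapmer. The median over all genes tested was 0.04. Without a correction for many tests 22 members were higher and 1 lower at a p under 0.05, where 16.2% of all genes were higher and 8.79% lower. All 3 EGOT gapmer values lay above all 3 control gapmer values in 23 members (59.0%), compared with 20.2% of all genes, and below them in 1 member, compared with 11.5% of all genes.

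The members are mostly bright protein-coding genes, and calls were more common among such genes. Among protein-coding genes brighter than the median of all genes 9.02% were called higher and 33.1% were higher with no overlap of the groups. Of the 32 members in that class 6 rose (18.8%) and 22 were higher with no overlap (68.8%). These shares describe the members and are not a test of the list.

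**Figure D1:**
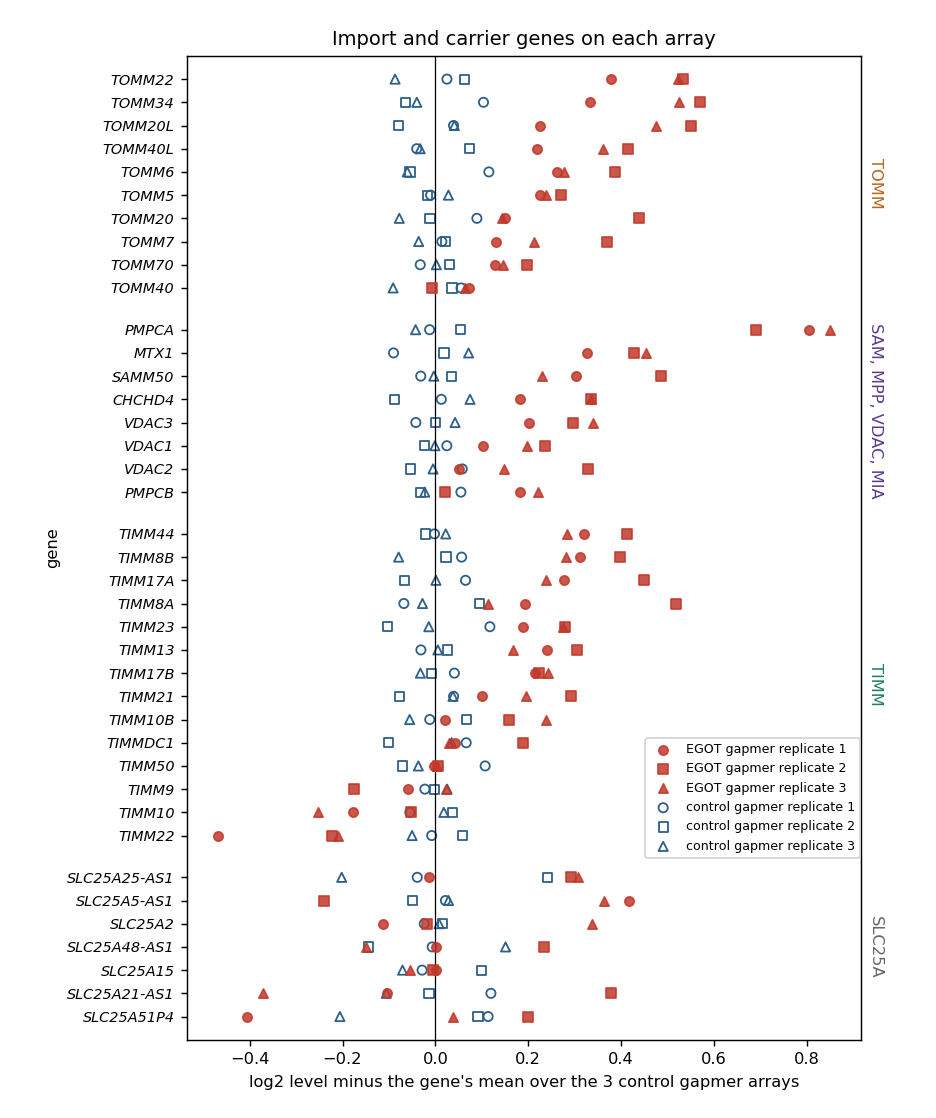
Each point is 1 array: the horizontal axis gives a gene's log2 level minus its mean over the 3 control gapmer arrays, with EGOT gapmer arrays filled and control gapmer arrays open, and genes are grouped by family and sorted by difference. The filled points lie right of all open points in 23 of the 39 genes, left of them in TIMM22, and are mixed with them in all 7 SLC25A genes.

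The TOM complex recognises nearly all precursors. TOMM22, its central receptor, which also holds the complex together, read 8.88, 9.04 and 9.03 with the EGOT gapmer, against 8.53, 8.57 and 8.42 with the control gapmer. The lowest EGOT gapmer array was 0.32 above the highest control array, and the log2 difference was 0.48 (SE 0.080, limma adjusted p = 0.0212). TOMM34, a cytosolic co-chaperone of HSP70 and HSP90 named for its link to import, read 9.30, 9.53 and 9.49 with the EGOT gapmer, against 9.07, 8.90 and 8.93 with the control gapmer. The groups were again apart, with a log2 difference of 0.48 (SE 0.091, limma adjusted p = 0.0289). TOMM20L, a paralogue of the receptor TOMM20, read 6.09, 6.42 and 6.34 with the EGOT gapmer, against 5.90, 5.79 and 5.91 with the control gapmer. It passed narrowly, with a log2 difference of 0.42 (SE 0.10, limma adjusted p = 0.0498). Averaging the probe sets of each gene left its own difference at 0.42, but it then did not pass (limma adjusted p = 0.0502). The gene of TOMM20L overlaps that of TIMM9 on the opposite strand over 8587 bases, and TIMM9 had a difference of -0.07.

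The other TOMM genes had smaller differences and did not pass the threshold. TOMM40L, a paralogue of the pore protein, stood at the threshold from the other side, with a log2 difference of 0.33 (SE 0.081, limma adjusted p = 0.0501). It read 7.08, 7.28 and 7.23 with the EGOT gapmer and 6.82, 6.94 and 6.83 with the control gapmer. The small subunits that stabilise the pore had differences on the log2 scale of 0.31 for TOMM6, 0.25 for TOMM5 and 0.24 for TOMM7 (limma adjusted p = 0.0612, 0.0602 and 0.128). TOMM5 had the tightest arrays of these, at 9.89, 9.93 and 9.90 with the EGOT gapmer and 9.65, 9.65 and 9.69 with the control gapmer. The receptors TOMM20 and TOMM70 had differences on the log2 scale of 0.24 and 0.16 (limma adjusted p = 0.196 and 0.194), and in both the groups did not overlap.

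TOMM40 encodes the pore itself, and its 2 probe sets gave different values. The brighter one, used here, read 10.29, 10.21 and 10.29 with the EGOT gapmer, against 10.28, 10.26 and 10.13 with the control gapmer. The groups overlapped, and the log2 difference of 0.04 had a 95% interval of -0.13 to 0.22 (limma adjusted p = 0.775). Its sign turned under other scalings. A second, dimmer probe set of TOMM40 had a log2 difference of 0.24, at 7.55, 7.34 and 7.51 with the EGOT gapmer and 7.32, 7.05 and 7.31 with the control gapmer. The groups did not overlap on that probe set, and with both probe sets averaged the log2 difference was 0.14 (limma adjusted p = 0.319), so the value near 0 belongs to the brighter one.

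**Figure D2:**
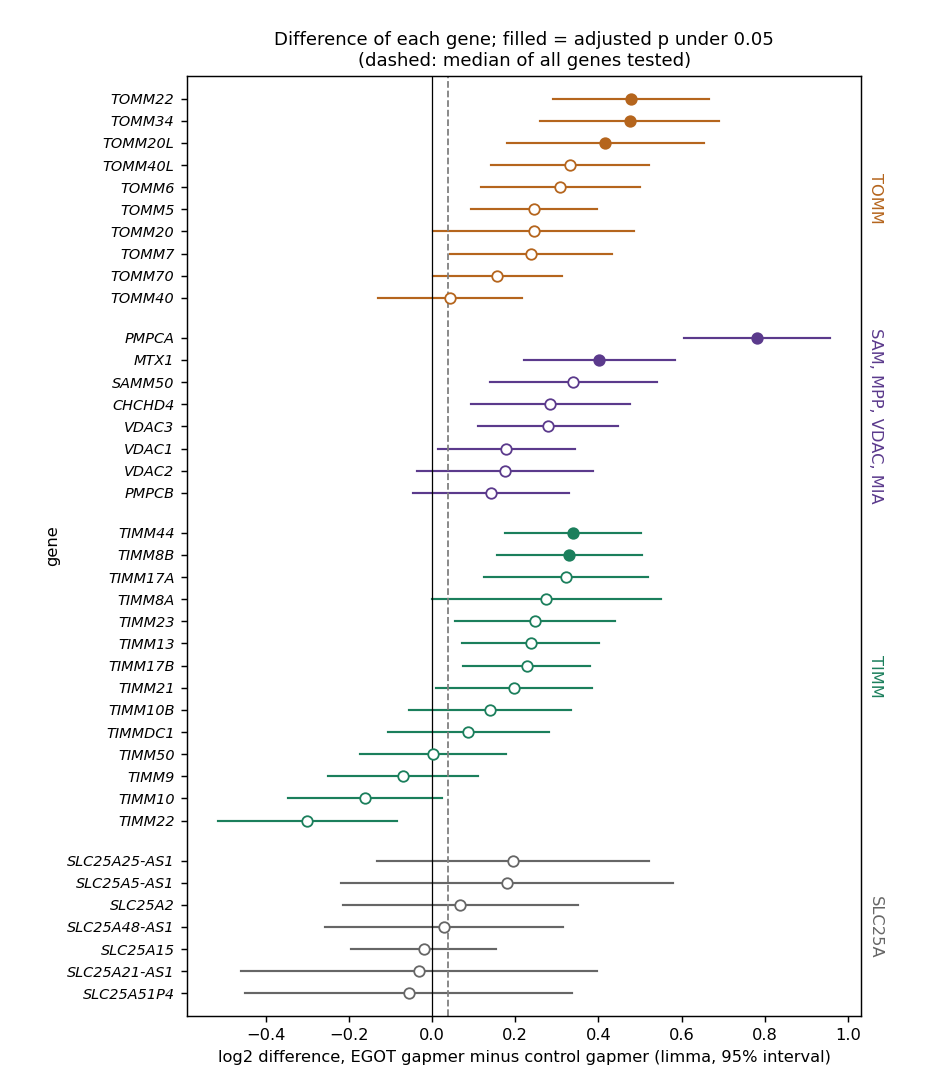
Log2 difference of each gene, EGOT gapmer minus control gapmer, on the horizontal axis with its 95% interval from limma; filled circles passed an adjusted p of 0.05 and the dashed line is the median of all genes tested, at 0.04. PMPCA, at 0.78, is the largest of the 7 that passed, and TIMM22, at -0.30, is the lowest of all 39.

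Of the outer-membrane, processing and oxidative-import genes 2 of 8 rose and all 8 had a difference above 0, beside 5.2% and 57.8% of all genes. Their median was 0.28. PMPCA, the alpha subunit of the mitochondrial processing peptidase, which binds the presequence, changed most of all members. It read 8.94, 8.83 and 8.99 with the EGOT gapmer, against 8.12, 8.19 and 8.09 with the control gapmer. The groups were 0.64 apart at their closest, and the log2 difference of 0.78 (SE 0.075, limma adjusted p = 0.00837) is a 1.72-fold ratio. PMPCB, the beta subunit, which carries the catalytic metal site, read 9.76, 9.60 and 9.80 with the EGOT gapmer, against 9.64, 9.55 and 9.56 with the control gapmer. These overlapped, and the log2 difference was 0.14 (95% interval -0.05 to 0.33, limma adjusted p = 0.333). The level of PMPCA relative to PMPCB on the same array was 0.62, 0.67 and 0.63 higher on the EGOT gapmer arrays than in the control mean, and -0.07, 0.09 and -0.02 on the control arrays, a comparison chosen after its values were seen.

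MTX1, metaxin 1 of the sorting and assembly machinery, rose. It read 7.31, 7.41 and 7.44 with the EGOT gapmer, against 6.89 to 7.06 with the control gapmer, with no overlap and a log2 difference of 0.40 (SE 0.077, limma adjusted p = 0.0289). MTX1 has a nearby pseudogene of similar sequence, so its probe set may not read it alone. SAMM50, the beta-barrel core of that machinery, averaged 8.30 ± 0.13 with the EGOT gapmer and 7.96 ± 0.033 with the control gapmer (SD, n = 3 each). The groups did not overlap, but its log2 difference of 0.34 did not pass (SE 0.085, limma adjusted p = 0.055). CHCHD4, the oxidoreductase that folds small cysteine-rich proteins in the intermembrane space, had a log2 change estimate of 0.28 (limma adjusted p = 0.0766), again with no overlap.

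The VDAC genes encode the channels that let metabolites through the outer membrane, and none passed as deposited. VDAC3 read 10.96, 11.06 and 11.10 with the EGOT gapmer, against 10.72, 10.76 and 10.80 with the control gapmer (log2 difference 0.28, limma adjusted p = 0.0574). It passed after another quantile normalization (0.28, limma adjusted p = 0.0456) but not after cyclic loess (0.24, limma adjusted p = 0.071). VDAC1 and VDAC2 had differences on the log2 scale of 0.18 and 0.18 (limma adjusted p = 0.168 and 0.284), without overlap in VDAC1 and with overlap in VDAC2.

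The TIMM genes were less uniform: 2 of 14 rose and 11 had a difference above 0, beside 5.2% and 57.8% of all genes. Their median was 0.21. Among the 6 measured genes of the presequence translocase and its motor all differences were above 0, with a median of 0.24, and TIMM44 passed. TIMM44, which tethers the matrix HSP70 to the channel, read 8.73, 8.83 and 8.70 with the EGOT gapmer, against 8.41, 8.39 and 8.44 with the control gapmer (log2 difference 0.34, SE 0.069, limma adjusted p = 0.0325). TIMM17A and TIMM17B, alternative core subunits of the channel, had differences on the log2 scale of 0.32 and 0.23 that did not pass (limma adjusted p = 0.0598 and 0.0763). In both, every EGOT gapmer array read above every control gapmer array.

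TIMM23, after which the translocase is named, had a log2 change estimate of 0.25 (limma adjusted p = 0.112), and its probe set may also read the near-identical copy TIMM23B. TIMM21, which links the translocase to the TOM complex, had a log2 change estimate of 0.20 (limma adjusted p = 0.184). TIMM50, the receptor facing the intermembrane space, read 8.93, 8.94 and 8.93 with the EGOT gapmer, inside the control gapmer range of 9.04, 8.86 and 8.89. Its log2 difference of 0.0019 had a 95% interval of -0.17 to 0.18 and turned below 0 under other scalings.

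The genes of the carrier translocase and its small chaperones had differences of both signs, with 4 of 7 above 0, near the share over all genes (57.8%), and a median of 0.14. TIMM8B, a small TIM protein, rose to 7.96, 8.05 and 7.93 with the EGOT gapmer, against 7.71, 7.67 and 7.57 with the control gapmer (log2 difference 0.33, SE 0.074, limma adjusted p = 0.0411). It did not pass after another quantile normalization (0.28, limma adjusted p = 0.0551) or cyclic loess (0.28, limma adjusted p = 0.0551). TIMM13, which works in a hexamer with TIMM8A, had a log2 change estimate of 0.24 (limma adjusted p = 0.0834), and TIMM8A had one of 0.27 (limma adjusted p = 0.201). TIMM10B, a peripheral subunit of the carrier translocase, had a log2 change estimate of 0.14 (limma adjusted p = 0.356).

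TIMM22, the channel that inserts carriers, was the lowest member. It read 9.41, 9.65 and 9.67 with the EGOT gapmer, against 9.87, 9.94 and 9.83 with the control gapmer. The groups did not overlap, and the log2 difference of -0.30 did not pass with the values as deposited (SE 0.091, limma adjusted p = 0.0904). It did pass after another quantile normalization (-0.34, limma adjusted p = 0.0385) and after cyclic loess (-0.35, limma adjusted p = 0.0386). TIMM9 and TIMM10, which form the hexamer that escorts carriers, had differences on the log2 scale of -0.07 and -0.16 (limma adjusted p = 0.634 and 0.261), with overlapping groups. TIMM23 relative to TIMM22 was 0.66, 0.50 and 0.49 higher on the EGOT gapmer arrays than in the control mean, and between -0.16 and 0.13 on the control arrays. TIMM22, TIMM9 with TIMM10, and this ratio were singled out after their values were seen. TIMMDC1, an assembly factor of respiratory complex I in spite of its name, had a log2 change estimate of 0.09 (limma adjusted p = 0.582).

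**Figure D3:**
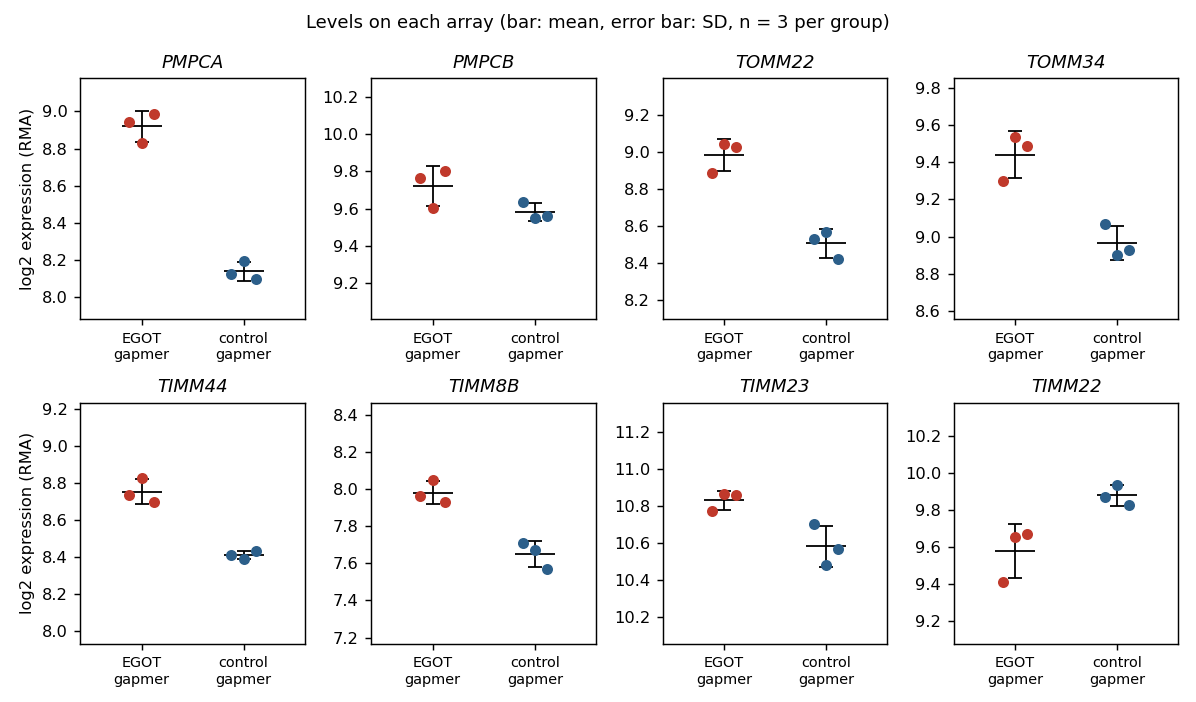
Log2 expression on each array for 8 genes, EGOT gapmer left and control gapmer right in each panel; horizontal bars are means, error bars are SDs (n = 3), and all panels span the same height on the log2 scale. PMPCA separates by more than PMPCB, and TIMM22 is lower with the EGOT gapmer while TIMM23 is higher.

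The SLC25A group holds few carriers. Of its 7 members 2 are protein-coding, 4 are antisense RNAs named after a carrier gene, and SLC25A51P4 is a transcribed pseudogene, so the data say little about SLC25 transport as a whole. None of the 7 passed by limma, adjusted or at an unadjusted p under 0.05, and the groups overlapped in all 7. Over all genes 5.2% were called higher, 16.2% were higher at an unadjusted p under 0.05 and 20.2% were higher with no overlap. With only 7 members, counts of 0 are not far from these shares. The median log2 difference was 0.03 and turned to -0.02 after another quantile normalization. SLC25A15, which carries ornithine into the matrix for the urea cycle, read 6.85, 6.84 and 6.80 with the EGOT gapmer, against 6.82, 6.95 and 6.78 with the control gapmer. Its log2 difference was -0.02, with a 95% interval of -0.19 to 0.15 (limma adjusted p = 0.902). SLC25A2, its intronless paralogue, had a log2 difference of 0.07 (95% interval -0.21 to 0.35, limma adjusted p = 0.783), with EGOT gapmer replicate 3 at 6.15 and the other 5 arrays at 5.70 to 5.83.

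Most of the RNAs named after carriers were dim, although SLC25A25-AS1 lay above the array median on every array. SLC25A25-AS1 had the largest log2 difference of the group, 0.20, with a 95% interval of -0.13 to 0.52 (limma adjusted p = 0.447). SLC25A5-AS1 read 5.30, 4.64 and 5.24 with the EGOT gapmer, against 4.90, 4.83 and 4.91 with the control gapmer, so EGOT gapmer replicate 2 lay below the control arrays and the other two above them. Its log2 difference was 0.18 (limma adjusted p = 0.579), and 0.39 without that replicate (limma adjusted p = 0.0492). SLC25A48-AS1, SLC25A21-AS1 and SLC25A51P4 lay below the array median on all 6 arrays, with log2 differences of 0.03, -0.03 and -0.06. The genes of SLC25A5-AS1, SLC25A48-AS1 and SLC25A21-AS1 overlap their sense carriers, which were not analysed here. The median standard error was 0.14 in the SLC25A group, 0.081 in the TOMM genes and 0.079 in the TIMM genes, so a difference of a given size was harder to detect among the SLC25A members.

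Set side by side, 9 of 10 TOMM genes, 8 of 14 TIMM genes and 0 of 7 SLC25A genes were higher with no overlap of the groups. The share was 20.2% over all genes and 33.1% over protein-coding genes brighter than the median. With only 7 members, 0 is not far from the share of all genes. The median log2 differences were 0.28, 0.21 and 0.03, beside 0.04 over all genes. The families were not tested against each other. Relative to the control gapmer mean, the median TOMM gene stood at 0.22, 0.40 and 0.26 on EGOT gapmer replicates 1 to 3, the median TIMM gene at 0.15, 0.25 and 0.18, the median SLC25A gene at -0.01, 0.20 and 0.04, and the median of all genes at 0.01, 0.10 and 0.01. EGOT gapmer replicate 2 was thus the highest for each of these, and it was the highest of the 3 EGOT gapmer arrays in 26 of the 39 members. Without it the median over the members was 0.17, against 0.01 over all genes. Then 2 members passed, PMPCA and SLC25A5-AS1 (5.13%, beside 1.67% of all genes called higher).

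The calls depended on having all 6 arrays, while the differences moved less. PMPCA passed in 4 of the 6 fits that left out 1 array and had limma adjusted p-values of 0.0562 and 0.0517 without control gapmer replicates 2 and 3. TOMM22, TOMM34, MTX1 and TOMM20L passed only without EGOT gapmer replicate 1, and TIMM44 and TIMM8B in none of the 6. Across these fits the log2 difference of PMPCA ranged from 0.75 to 0.83, that of TOMM22 from 0.43 to 0.53 and that of TIMM44 from 0.30 to 0.37. In the whole table differences were lower for genes of longer genomic span (Spearman rho -0.212 across 14812 genes, which are not independent replicates), whereas across the 39 members rho was 0.067. Once that trend was taken out, the median over the members was 0.15, against 0.0024 over all genes, and 3 members passed, PMPCA (0.70), TOMM22 (0.40) and TOMM34 (0.39).

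**Figure D4:**
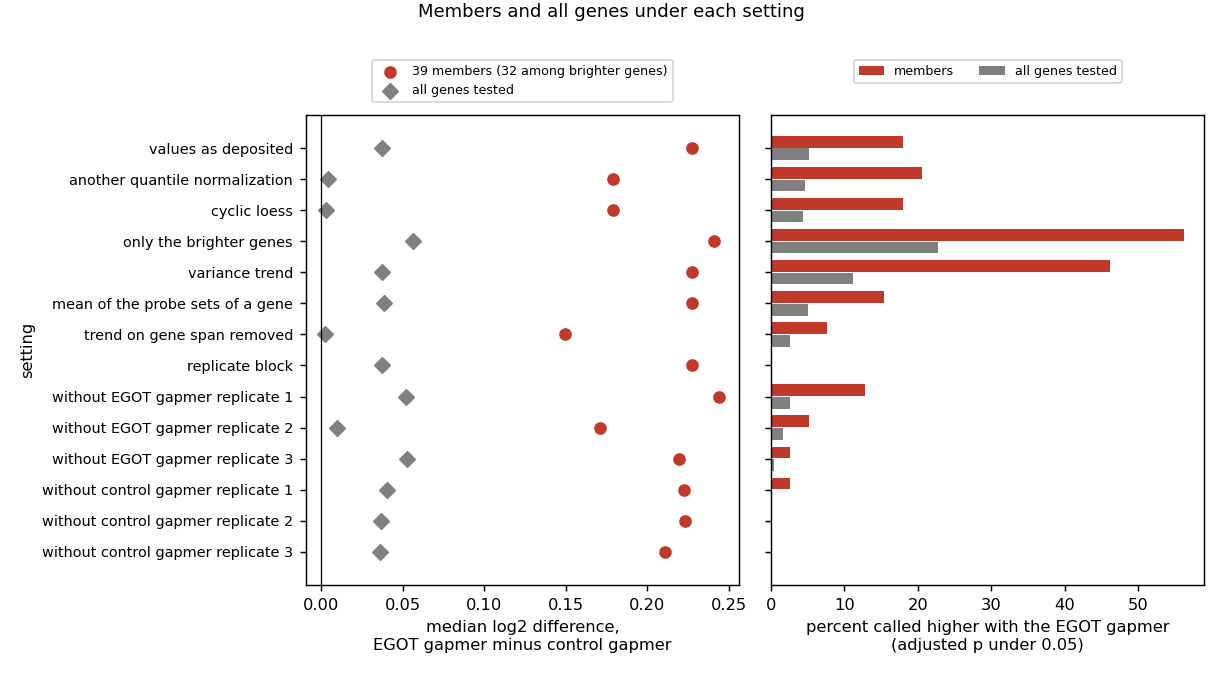
Left, the median log2 difference of the members (circles) and of all genes tested (diamonds) for the values as deposited and each alternative; right, the percent called higher with the EGOT gapmer, where a missing bar is 0 or too small to see. The members' median stays between 0.15 and 0.24 in all settings, while the percent called higher runs from 0 to 56.2.

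Promoters were read because several members had differences of the same sign, and whether these share a cause was not tested. Letters recognised by factors known to drive nuclear genes for mitochondrial proteins were searched on both strands in the 250 bases before the start of 34 members, 30 of them protein-coding, with RefSeq sequence of GRCh38.p14. They were GCGC and again GCGC with 2 bases between for NRF1, CCGGAAG for ETS factors such as GABPA, AAGATGGC for YY1 and TGACGTCA for CREB, which do not overlap one another in the sequences shown. The ETS letters stood in 9 of the 30 protein-coding members (30%), compared with 12.9% of the promoters of protein-coding genes tested. The NRF1 letters stood in 5 (16.7%), compared with 11.2%, the YY1 letters in 1 and the CREB letters in 0. The members are mostly bright genes, and shares among promoters of bright genes alone were not counted. These counts take 1 window per gene, the first start listed, a choice made after a count over every listed start had been seen. That earlier count had the ETS letters in 11 of 35 windows of protein-coding members (31.4%), compared with 11.4% of windows of protein-coding genes tested, and the NRF1 letters in 5 (14.3%), compared with 9.79%. Among the 6 promoters of members that rose, 1 held the NRF1 letters, that of TOMM34, and 0 held the ETS letters. The windows of the 3 leading members that rose are shown 5′ to 3′ with these letters in capitals, and that of TOMM20, which holds both the NRF1 and the ETS letters, is shown for comparison.
PMPCA (chr9:136410408-136410657, plus strand): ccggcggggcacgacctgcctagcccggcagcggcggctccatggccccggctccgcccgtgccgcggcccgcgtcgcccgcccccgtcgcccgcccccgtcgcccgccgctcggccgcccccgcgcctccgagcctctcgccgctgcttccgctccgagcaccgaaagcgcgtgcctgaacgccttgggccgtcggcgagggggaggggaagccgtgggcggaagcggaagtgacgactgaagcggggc
TOMM22 (chr22:38681707-38681956, plus strand): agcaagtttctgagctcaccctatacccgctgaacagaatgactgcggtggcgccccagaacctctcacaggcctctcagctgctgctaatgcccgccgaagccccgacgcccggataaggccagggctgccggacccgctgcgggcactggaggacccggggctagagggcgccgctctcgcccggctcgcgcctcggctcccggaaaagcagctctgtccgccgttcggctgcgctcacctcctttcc
TOMM34 (chr20:44960398-44960647, minus strand): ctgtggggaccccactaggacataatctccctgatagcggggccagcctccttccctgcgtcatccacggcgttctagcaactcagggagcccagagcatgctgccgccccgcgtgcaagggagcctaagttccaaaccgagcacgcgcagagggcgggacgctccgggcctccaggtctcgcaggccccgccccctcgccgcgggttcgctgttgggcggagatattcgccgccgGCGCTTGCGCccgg
TOMM20 (chr1:235128838-235129087, minus strand): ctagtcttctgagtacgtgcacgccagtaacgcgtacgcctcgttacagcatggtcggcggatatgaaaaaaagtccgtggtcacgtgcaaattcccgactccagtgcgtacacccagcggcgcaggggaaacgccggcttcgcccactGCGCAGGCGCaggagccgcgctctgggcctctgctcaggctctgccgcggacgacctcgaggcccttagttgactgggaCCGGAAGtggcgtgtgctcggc
TOMM34 carried the NRF1 letters from 14 bases before the start, and TOMM20 carried the ETS letters from 22 bases before it, with the NRF1 letters further upstream. PMPCA and TOMM22 held none of the 4 in this form. A match is only a run of letters, and a window without one says nothing of the factor.

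Few genes that work beside the import machinery passed, with 0 of 13 and 1 of 7 in the lists that follow called higher, beside 5.2% of all genes. Counts with no overlap of the groups are given beside the shares of all genes. Among protein-coding genes brighter than the median, 33.1% were higher with no overlap. Neither list was tested against these shares. Of 21 matrix chaperone and protease genes 13 were measured and 10 had a difference above 0. By limma 0 passed, and 5 were higher and 1 lower at an unadjusted p under 0.05, where 16.2% and 8.79% of all genes were. The groups did not overlap in 7 that were higher and 1 that was lower, compared with 20.2% and 11.5% of all genes. PITRM1, which degrades cleaved presequences, had a log2 change estimate of 0.28 (limma adjusted p = 0.0637), and IMMP2L, a subunit of the inner-membrane peptidase, one of -0.30 (limma adjusted p = 0.067). Named for their roles, HSPD1, the matrix chaperonin, had a log2 change estimate of 0.25 (limma adjusted p = 0.0878) and HSPA9, the matrix HSP70 that pulls precursors in, one of 0.03 (limma adjusted p = 0.811). Of 12 insertion and cristae genes 7 were measured and 4 had a difference above 0, beside 57.8% of all genes. The groups did not overlap in 3 that were higher and 1 that was lower, compared with 20.2% and 11.5% of all genes. With only 7 genes, 3 is not far from the 33.1% of brighter protein-coding genes. By limma 3 were higher and 1 lower at an unadjusted p under 0.05, where 16.2% and 8.79% of all genes were. ROMO1, a small inner-membrane protein, rose by 0.40 on the log2 scale (limma adjusted p = 0.0436). In that list OXA1L, which inserts proteins from the matrix side, had a log2 change estimate of 0.18 (limma adjusted p = 0.149) and APOOL, of the cristae-organising complex, one of 0.23 (limma adjusted p = 0.162). Other genes of that complex lay below 0, with log2 differences of -0.20 for CHCHD3, -0.16 for CHCHD6 and -0.06 for MICOS13 (limma adjusted p = 0.194, 0.482 and 0.691), and APOO lay at 0.20 (limma adjusted p = 0.282). These 4 were named after their values were seen. In CHCHD3 the groups did not overlap.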

How the data were processed

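Total RNA of 6 HuH7 samples, 3 with the EGOT gapmer and 3 with the control gapmer, was hybridised to 6 Affymetrix arrays, per the labels. The values are log2 expression values that the authors made with RMA (background correction, quantile normalization and probe set summary), per the submitters' processing notes. Its version, software and filters were not given in the sources used here. Because RMA scales arrays toward a shared distribution, a change in total RNA per cell would not be seen, and low values are compressed toward background. The deposited array medians still ran from 5.08 to 5.23. Another quantile normalization moved the median log2 difference over all genes from 0.04 to 0.0037 and that over the members from 0.23 to 0.18.

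Of 44629 probe sets, 15835 had 1 symbol in GEO's platform annotation, for 14812 genes; all matched the RefSeq table of GRCh38.p14. A gene was represented by its brightest probe set (mean over the 6 arrays), and of the 39 members only TOMM40 had more than 1. Groups were taken from sample titles, and differences (EGOT gapmer minus control gapmer) were fitted in limma 3.58.1 (R 4.3.3; lmFit and eBayes, two-sided, Benjamini-Hochberg over 14812 genes, threshold 0.05). Intervals use limma's moderated 7.19 degrees of freedom. The small number of arrays limits precision. Tested on data simulated for the same 14812 genes, the fit found 39 of 100 true log2 changes of 0.5 and 86 of 100 of size 1, and 5 of its 130 calls were false.

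Named genes are EGOT, the members that passed, and in each of 4 groups the 3 others with the smallest p and the 2 nearest to 0. In the further import and carrier lists they are the genes that passed and the 2 with the smallest p that did not. Remaining members, marker genes and EIF2AK2 were described after their values were seen. Members, lists, motifs and tests were chosen with earlier results of these data known. Alternatives were other scalings, a filter on dim genes, a variance trend, averaged probe sets, removal of the trend on gene span (loess, span 0.5), a replicate block and leaving out each array. Same-numbered arrays did not deviate together (correlations across genes -0.031, -0.054 and 0.039), so replicate numbers were not taken as pairs. With 3 arrays per group this cannot exclude a pairing.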

Additional observations from a re-analysis of the deposited data

How the results depend on the processing

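The number of calls depended on the fit far more than the differences did. As deposited, 1245 genes were called in either direction, and 7 of 39 members were higher with 0 lower. A variance trend gave 2513 genes, and 18 members higher with 1 lower. Testing only the 7406 brighter genes, which hold 32 members, gave 2547 genes, and 18 members higher with 1 lower. In these fits 17.9%, 46.2% and 56.2% of the members tested were called higher, beside 5.2%, 11.2% and 22.8% of all genes tested. Removing the trend on gene span gave 697 genes and 3 members higher (7.69%, beside 2.54% of all genes). Another quantile normalization and cyclic loess each called 1 member lower, and 50.2% and 48.8% of all calls were then higher, against 61.8% as deposited. The replicate block called 0 genes and 0 members, and whether equal replicate numbers mark paired arrays is not known here. Leaving out each array in turn gave 9 to 579 genes, 0 to 5 members higher and 0 lower. The member called lower in 4 alternatives was TIMM22.

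The median over all members, 0.23 as deposited, was 0.18 after another quantile normalization and 0.18 after cyclic loess (all genes 0.0037 and 0.0025), 0.15 once the trend on gene span was taken out, and 0.17 to 0.24 with an array left out. The TIMM median was 0.16 and 0.16 under the 2 scalings, 0.13 without that trend and 0.15 to 0.23 with an array left out. The TOMM median was 0.20 without that trend and 0.25 to 0.31 with an array left out. The SLC25A median ran from -0.03 to 0.09 with an array left out.

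Among members near 0, signs turned without a call. After another quantile normalization, cyclic loess and removal of the trend on gene span, the differences were -0.0051, -0.0041 and -0.044 for TOMM40, -0.049, -0.053 and -0.085 for TIMM50, and -0.017, -0.016 and -0.055 for SLC25A48-AS1. With an array left out they ranged from -0.0022 to 0.071 for TOMM40, -0.033 to 0.056 for TIMM50, -0.074 to 0.12 for SLC25A48-AS1, -0.055 to 0.030 for SLC25A15 and -0.066 to 0.16 for SLC25A2. The cause of these changes was not tested. Signal over background limits the 3 SLC25A RNAs that lay below every array's median.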

Other observations

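Listed carriers outside the SLC25 family had counts near those of all genes. Too few regulators and SLC25 relatives under other symbols were measured for such a comparison. All 9 listed inner-membrane carriers outside the SLC25 family were measured, 6 had a difference above 0 and 0 passed by limma, where 2 were higher and 0 lower at an unadjusted p under 0.05. Of all genes 57.8% had a difference above 0, 5.2% were called higher and 16.2% were higher at an unadjusted p under 0.05. MPC2, a subunit of the mitochondrial pyruvate carrier, had a log2 change estimate of 0.23 (limma adjusted p = 0.149), and SFXN3, of the sideroflexin family of serine transporters, one of 0.19 (limma adjusted p = 0.168). MCU, the pore of the calcium uniporter, read 8.21 with the EGOT gapmer and 8.21 with the control gapmer as means, a log2 difference of -0.0036. Of 5 SLC25 relatives under other symbols 2 were measured. MTCH2, an outer-membrane insertase, had a log2 change estimate of 0.16 (limma adjusted p = 0.424) and its paralogue MTCH1 one of -0.02 (limma adjusted p = 0.881). Of 9 regulators of mitochondrial biogenesis 2 were measured: the transcription factor genes NRF1, at 0.03 (limma adjusted p = 0.885), and ESRRA, at 0.13 (limma adjusted p = 0.517). MCU was named after its value was seen.

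Levels of 2 small chaperones were also set against each other on each array. TIMM8B relative to TIMM10 was 0.49, 0.45 and 0.53 higher on the log2 scale on the EGOT gapmer arrays than in the control mean, and 0.11, -0.01 and -0.10 on the control arrays. Both are small chaperones of the intermembrane space, and the pair was chosen after its values were seen, so no test is given.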
